A study of Mus musculus with 5480 samples.

Results

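The glucocorticoid receptor and 7 genes known to be induced through it were followed in the lung mesenchyme of mice, the tissue of fibroblasts, smooth muscle and pericytes that supports airways, air sacs and vessels. The genes were Nr3c1, Fkbp5, Per1, Klf15, Tsc22d3, Zbtb16, Sgk1 and Dusp1. They were chosen by name, with earlier results of these data known, so the shares of all genes set beside them are a description. All 8 were found among the 18072 genes of the count table, and all 8 passed the filter on low counts in every class of cells tested. The study asked how the mesenchymal cell types of the lung change in late gestation, after birth and when newborn mice breathe air rich in oxygen (hyperoxia).

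Glucocorticoids are steroid hormones that cross the cell membrane and bind the receptor encoded by Nr3c1, which then enters the nucleus and binds DNA. In rodents and people, circulating glucocorticoid rises late in gestation, and the receptor in lung mesenchyme is known to be needed for the lung to mature. Of the 7 target genes, Fkbp5 encodes a chaperone that lowers the receptor's affinity for hormone. Per1 encodes a repressor of the circadian clock, Klf15 and Zbtb16 encode transcription factors, and Tsc22d3 encodes GILZ, a protein that mediates anti-inflammatory actions of glucocorticoids. Sgk1 encodes a kinase that acts on ion transport, and Dusp1 encodes a phosphatase that switches off MAP kinases and is also an immediate early gene, induced within minutes by stress and serum.

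Read counts came from 5480 single cells of 10 mice, 1 female and 1 male per group. Lungs were taken on embryonic day 18.5 (E18.5) and on postnatal days 1, 7 and 21 (P1, P7, P21) under the treatment label normal, and the last group was at P7 under the label hyperoxia. The labels give no strain, genotype or oxygen level. Cells of the distal lung had been sorted by flow cytometry, 5409 of them in a sort for mesenchymal cells, 69 in a CD31 and 2 in a CD45 sort. The 16 subtypes used here are the authors' labels. The mice gave between 311 and 633 cells each and between 294154721 and 671766116 reads in the table, with a median of 521125 to 1084627 reads per cell. Levels are CPM, the reads of a gene scaled to a library of 1000000 reads, here all reads summed over the cells of 1 mouse and 1 class, with the female first and the male second. Log2 changes and adjusted p are from edgeR's quasi-likelihood test on the summed counts, adjusted by Benjamini-Hochberg over all genes tested, with a threshold of 0.05. With 2 mice a group, all p-values rest on few residual degrees of freedom, between 2 and 5.

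The labels give each cell's sequencing run. At E18.5 and P1 the females shared 1 run (DC25, 609 and 629 cells) and the males another (DC35, 578 and 570 cells), so that the change around birth can be read within a run in each sex. The P7 and P21 males were in that same run, but the P7 and P21 females were in separate runs, and so were both hyperoxia mice. Run and hyperoxia therefore cannot be told apart. In this kind of data fewer cells with a transcript and less transcript per cell are both seen as a lower sum, so shares of cells are given beside the levels.

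Classes of cells joined several subtypes, and different subtypes made up a class at different ages. Among the 500 and 416 fibroblasts at E18.5, 425 and 335 were fibroblast precursors, whereas among the 509 and 467 at P1, 362 and 393 were early alveolar fibroblasts. Nearly all of the 103 contractile cells of the E18.5 female, and 123 of the 137 of the male, were myofibroblast and smooth muscle precursors. At P1 the 86 and 67 contractile cells were mainly myofibroblasts (39 and 32) and early airway smooth muscle (38 and 23). Vascular smooth muscle, with 7 and 9 cells at E18.5 and 15 and 16 at P1, was not part of this class. Each class held its markers: 6 fibroblast markers summed to 6456 to 6471 CPM in fibroblasts and 4037 to 4044 CPM in contractile cells at E18.5, and 6 contractile markers summed to 1161 to 1425 CPM and 4809.7 to 5903 CPM. From E18.5 to P1 the contractile markers moved to 2605 to 3327 CPM in fibroblasts and to 14877 to 14914 CPM in contractile cells. In these sums 2 of the 6 contractile markers rose in fibroblasts and 4 of 6 in contractile cells. The 5 markers of adventitial fibroblasts summed to 571 to 605 CPM in fibroblasts at E18.5 and to 1209.6 to 3457 CPM at P1, where 1 of 5 rose and 4 of 5 had a positive log2 change (median 2.73). With them, early adventitial fibroblasts went from 26 and 29 to 138 and 67 cells of the class. The part of these shifts in the changes of the 8 genes was not tested. The markers of cells outside the mesenchyme were low in both classes. In fibroblasts at E18.5 and P1 the summed level of 6 epithelial markers was at most 106 CPM, of 6 endothelial markers 12.8 CPM, of 6 immune markers 16.6 CPM and of 5 erythroid markers 2.66 CPM, and in contractile cells these maxima were 56.4, 10.4, 48.9 and 5.81 CPM.

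The DNA in front of these genes is shown because the receptor binds a palindrome of the hexamer AGAACA and its reverse complement TGTTCT, 3 bases apart, and because clock proteins bind the E-box CACGTG. RefSeq promoters of build GRCm38.p6, taken as the 250 bases before an annotated start, were matched by symbol. Those of 6 of the 8 genes were used, with 14 starts in all. Searched on both strands, the hexamer was present in 4 of the 14 windows (2 of 6 genes, Sgk1 and Tsc22d3), against 16.1% of 32851 windows of the same length in the table. The whole palindrome was present in 1 of the 14, a window of Sgk1, and in 3 of all 32851 windows (0.00913%). The E-box was present in 5 of the 14 windows, against 6.02% of all windows. Those windows were of 5 of the 6 genes, and no share per gene was taken over all genes. The cAMP response element TGACGTCA was present in 1 window, that of Dusp1, against 1.55% of all. Here 5 windows are printed 5′ to 3′ on the gene's strand, with the hexamers and E-boxes in capitals. In the Sgk1 window the E-box overlaps the first hexamer, and the palindrome follows it.
Sgk1, chr10:21993640-21993889, plus strand: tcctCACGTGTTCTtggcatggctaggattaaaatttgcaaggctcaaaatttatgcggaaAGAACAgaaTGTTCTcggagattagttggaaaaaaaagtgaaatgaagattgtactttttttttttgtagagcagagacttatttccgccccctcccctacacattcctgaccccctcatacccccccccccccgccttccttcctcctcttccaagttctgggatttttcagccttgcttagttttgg
Tsc22d3, chrX:140600523-140600772, minus strand: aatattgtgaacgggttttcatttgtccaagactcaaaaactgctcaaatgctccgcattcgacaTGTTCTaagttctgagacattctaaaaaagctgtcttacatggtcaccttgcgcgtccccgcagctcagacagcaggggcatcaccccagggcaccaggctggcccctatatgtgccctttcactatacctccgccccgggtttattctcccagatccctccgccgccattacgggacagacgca
Klf15, chr6:90462326-90462575, plus strand: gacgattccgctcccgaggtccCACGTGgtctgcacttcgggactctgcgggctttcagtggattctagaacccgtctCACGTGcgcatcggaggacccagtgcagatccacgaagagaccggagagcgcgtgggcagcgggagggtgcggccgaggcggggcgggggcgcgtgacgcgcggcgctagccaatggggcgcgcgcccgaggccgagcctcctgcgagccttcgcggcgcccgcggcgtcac
Per1, chr11:69098699-69098948, plus strand: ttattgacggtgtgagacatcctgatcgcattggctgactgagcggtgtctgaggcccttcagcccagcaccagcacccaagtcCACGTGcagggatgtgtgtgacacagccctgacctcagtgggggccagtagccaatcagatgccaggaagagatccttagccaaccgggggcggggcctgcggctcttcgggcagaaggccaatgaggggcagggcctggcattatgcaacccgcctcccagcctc
Fkbp5, chr17:28486150-28486399, minus strand: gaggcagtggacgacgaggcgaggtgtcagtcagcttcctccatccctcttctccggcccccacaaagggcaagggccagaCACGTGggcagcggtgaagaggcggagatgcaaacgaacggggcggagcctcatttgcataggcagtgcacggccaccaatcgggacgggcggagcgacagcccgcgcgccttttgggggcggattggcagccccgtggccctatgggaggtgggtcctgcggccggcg
A match of letters is a description and not a bound site, and a window without a match says nothing of the receptor, which is known to act largely from distant enhancers. The counts were made per gene, so which of the 6 starts of Sgk1 or the 3 of Tsc22d3 was used in these cells is not known here. From E18.5 to P1, genes with the hexamer lay on both sides of the threshold (Tsc22d3 passed in contractile cells, Sgk1 in no class). So did genes with the E-box, since Klf15 and Per1 passed while Fkbp5, Dusp1 and Sgk1 did not. The part of these letters in the change was not tested.

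From E18.5 to P1, receptor target genes fell in fibroblasts and in contractile cells, by between 3.48-fold and 22.4-fold for those past the threshold. In fibroblasts 3 of the 8 genes passed the test, all lower at P1 (Per1, Klf15 and Zbtb16), where 0.998% of 16831 genes tested passed it. In contractile cells 3 of 8 passed, all lower (Per1, Klf15 and Tsc22d3), against 0.764% of 15176 genes. The receptor gene itself passed in neither class.

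**Figure D1:**
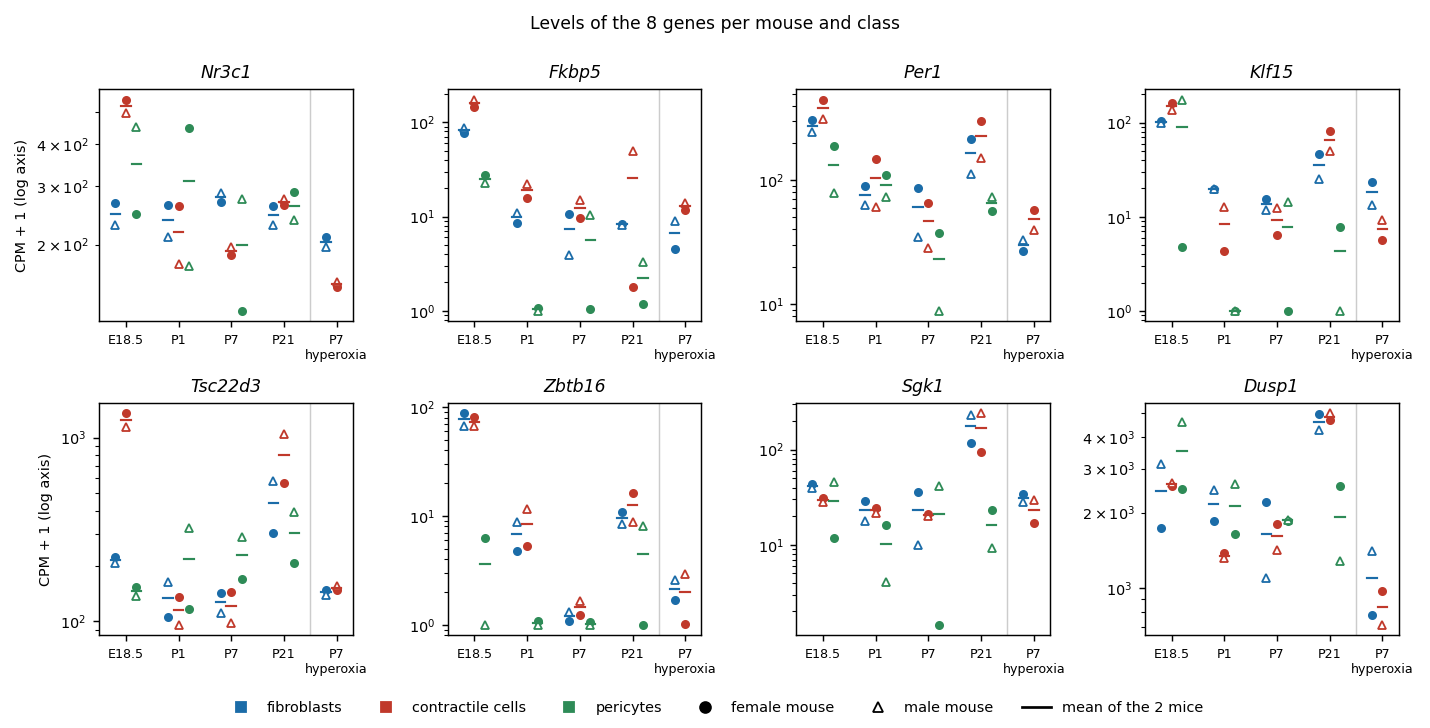
Level of each of the 8 genes (CPM + 1, log axis) in fibroblasts, contractile cells and pericytes, by group; circles are females, open triangles males and lines the mean of the 2 mice. Fkbp5, Per1, Klf15 and Zbtb16 are higher in both E18.5 mice than in both P1 mice in fibroblasts and in contractile cells.

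Nr3c1, the receptor, was at 265 and 228 CPM at E18.5 and at 261 and 210.1 CPM at P1 in fibroblasts, and the groups overlapped. The log2 change was 0.01 ± 0.24 (SE), adjusted p = 0.999. Contractile cells held 542 and 494 CPM at E18.5 and 261 and 174 CPM at P1, with both P1 mice below both E18.5 mice. That change was -1.26 ± 0.29 (SE), adjusted p = 0.114, short of the threshold. Within the class, myofibroblast and smooth muscle precursors alone held 540 and 490 CPM at E18.5 and 580 and 270 CPM at P1, with overlap. These P1 values are of 7 cells per mouse, and the part of the mix of subtypes in the change was not tested. The change of Nr3c1 nevertheless differed between the classes when the difference itself was tested in 1 model of both classes with the mouse as a block. It was lower in contractile cells than in fibroblasts by a log2 difference of -1.33 ± 0.21 (SE), adjusted p = 0.0498, where 0.393% of 17051 genes differed. This call was kept in 4 of 14 alternatives. It was lost with sex in place of the mouse as a term (adjusted p = 0.11), with cells of the mesenchymal sort only (0.0535) and without any 1 of the E18.5, P1, P7 or hyperoxia mice (0.103 to 0.264).

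Klf15, a transcription factor of amino acid and lipid metabolism, passed the test in both classes. In fibroblasts it was at 103 and 98.9 CPM at E18.5 and at 18.9 and 18.8 CPM at P1. The groups did not overlap, and it fell 5.04-fold (log2 change -2.33 ± 0.36 (SE), adjusted p = 0.0192). Its level in contractile cells was 162 and 135 CPM at E18.5 and 3.29 and 11.6 CPM at P1, again without overlap. It fell 22.4-fold there (log2 change -4.49 ± 0.73 (SE), adjusted p = 0.0307). The P1 values in contractile cells rest on few cells: 4 of 86 and 3 of 67 cells had a read, and 59.2% and 56.5% of the reads came from 1 cell of each mouse.

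Per1, the clock repressor, was also past the threshold in both classes. In fibroblasts its level was 306 and 243 CPM at E18.5 and 89.3 and 61.6 CPM at P1, a 3.48-fold fall (log2 change -1.80 ± 0.35 (SE), adjusted p = 0.0486). In contractile cells the level was 447 and 313 CPM and then 147 and 59.2 CPM, a 3.99-fold fall (log2 change -2.0 ± 0.33 (SE), adjusted p = 0.031). In neither class did the 2 ages overlap. The call was kept in 13 of 21 alternatives in fibroblasts and 14 of 21 in contractile cells. Besides leaving out 1 mouse, it was lost in fibroblasts with no term for sex (adjusted p = 0.0695), with DESeq2's size factors (0.0511) and without the hyperoxia and P21 mice (0.056), and in contractile cells with no term for sex (0.186). Per1 is known to respond to serum and dissociation as well as to hormone and clock. The summed level of 12 immediate early and dissociation genes was 17050.2 to 17684 CPM at E18.5 and 18876 to 24286 CPM at P1 in fibroblasts, so Per1 and that sum moved in opposite directions. In contractile cells the sum was 26022 to 29595 CPM at E18.5 and 19822 to 21307 CPM at P1. Both were lower at P1 there, and the part of tissue handling in the change of Per1 was not tested.

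Zbtb16, which encodes the zinc finger factor PLZF, was at 86.3 and 66.0 CPM at E18.5 and at 3.76 and 7.74 CPM at P1 in fibroblasts. It fell 14.0-fold with no overlap (log2 change -3.81 ± 0.67 (SE), adjusted p = 0.0293), the largest fall among the 8 genes in that class. In contractile cells its levels were also without overlap, 79.8 and 65.4 CPM and then 4.31 and 10.5 CPM, but the change did not pass the test (-3.60 ± 1.53 (SE), adjusted p = 0.416). At P1 5 of 86 and 5 of 67 contractile cells had a read of it.

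Tsc22d3 separated the classes. In contractile cells it was at 1352 and 1140.0 CPM at E18.5 and at 135 and 94.6 CPM at P1, without overlap. This 10.9-fold fall (log2 change -3.45 ± 0.41 (SE), adjusted p = 0.00879) had the lowest adjusted p of the 8 genes. In fibroblasts it was at 224 and 206 CPM and then 105 and 162 CPM. Both P1 mice were lower, and the change was -0.64 ± 0.36 (SE), adjusted p = 0.627. The change was lower in contractile cells than in fibroblasts by a log2 difference of -2.86 ± 0.36 (SE), adjusted p = 0.019 in the same model. That call was kept in 11 of 14 alternatives and lost without the E18.5 female (0.152), the E18.5 male (0.116) or the P1 male (0.0681). For Klf15 that difference between classes was -2.26 ± 0.82 with an adjusted p of 0.41 and for Dusp1 -0.94 ± 0.44 with 0.562, and for Fkbp5, Per1, Zbtb16 and Sgk1 the adjusted p was between 0.947 and 1.

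Fkbp5, the receptor's co-chaperone, was at 75.7 and 86.5 CPM at E18.5 and at 7.64 and 10.0 CPM at P1 in fibroblasts. The ages did not overlap, but the change (-3.11 ± 0.63 (SE), adjusted p = 0.0569) missed the threshold. In contractile cells the levels were 144 and 172 CPM and 14.7 and 21.2 CPM (-3.21 ± 1.19 (SE), adjusted p = 0.358). Its spread over the 10 libraries of that class was wide, with a SE of more than 1 log2 unit. Fkbp5 passed with a like fall in 8 of 21 alternatives in fibroblasts, among them no term for sex (adjusted p = 0.0323) and the 4 mice of the comparison alone (0.0138). In contractile cells it passed in 5 of 21, with log2 changes of -3.16 without either P21 mouse (0.00366 without the female, 0.00444 without the male), -3.15 in the 4 mice alone (0.0196) and -3.18 without the hyperoxia and P21 mice (0.00905).

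Sgk1 and Dusp1 did not pass the test in either class. Sgk1 was at 42.7 and 38.9 CPM at E18.5 and 27.8 and 16.7 CPM at P1 in fibroblasts (-0.84 ± 0.54 (SE), adjusted p = 0.705) and at 30.3 and 27.0 CPM and 23.4 and 20.6 CPM in contractile cells (-0.38 ± 0.50 (SE), adjusted p = 0.835). Dusp1 was at 1741 and 3126 CPM and 1845 and 2474 CPM in fibroblasts, with overlap (-0.07 ± 0.42 (SE), adjusted p = 0.991). Contractile cells had 2564 and 2623 CPM and 1374 and 1319 CPM, without overlap (-0.94 ± 0.27 (SE), adjusted p = 0.219).

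Set side by side, both P1 mice were lower than both E18.5 mice for 6 of the 8 genes in fibroblasts and for 8 of 8 in contractile cells. The same held for 28.5% of all genes tested in fibroblasts and for 25.4% in contractile cells. The median log2 change of the 8 genes was -1.32 in fibroblasts, beside -0.0042 over all genes, and -2.60 in contractile cells, beside -0.08. Without the cells of the CD31 and CD45 sorts, Klf15 alone passed in fibroblasts (adjusted p = 0.0508 for Per1 and 0.0875 for Zbtb16). The falls past the threshold rest on all 4 mice of the comparison. Over all alternatives Klf15 kept its call in 17 of 21 in fibroblasts and 12 of 21 in contractile cells, Zbtb16 in 14 of 21 in fibroblasts and Tsc22d3 in 17 of 21 in contractile cells. With any 1 of the E18.5 or P1 mice left out, 0 of the 8 genes passed in either class. Klf15 in fibroblasts then had a log2 change of -2.66 to -2.06 and an adjusted p of 0.0865 to 0.261. Tsc22d3 in contractile cells had a change of -3.71 to -3.22 and an adjusted p of 0.0508 to 0.133.

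**Figure D2:**
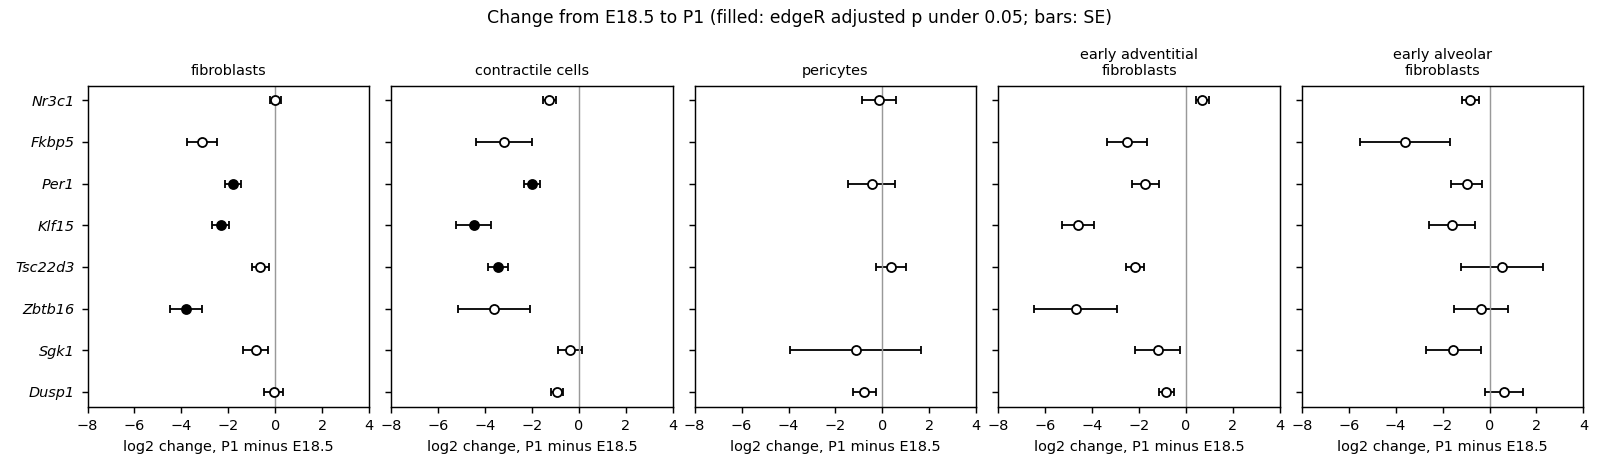
Log2 change from E18.5 to P1 (P1 minus E18.5, ± SE) of each gene in 5 classes; filled points have an edgeR adjusted p under 0.05, and genes with 3 reads or fewer over both mice of a group are left out. Filled points are found only in fibroblasts (Per1, Klf15, Zbtb16) and contractile cells (Per1, Klf15, Tsc22d3).

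The lower levels went with fewer cells that held a read. Each cell was thinned to 100000 reads, which left out 168 shallower cells of the 5480. Klf15 was then found in 38.8% (95% Wilson interval 34.6% to 43.3%) and 40.0% (95% Wilson interval 35.4% to 44.9%) of fibroblasts at E18.5 and in 5.99% (95% Wilson interval 4.20% to 8.47%) and 7.67% (95% Wilson interval 5.52% to 10.6%) at P1. Without thinning the counts were 209 of 500 and 177 of 416 cells at E18.5 and 32 of 509 and 42 of 467 at P1. For Zbtb16 the thinned shares were 38.8% and 30.8% at E18.5 and 2.89% and 4.88% at P1 (211 of 500 and 148 of 416, then 19 of 509 and 32 of 467 cells unthinned). For Fkbp5 they were 45.9% and 37.4% and 6.82% and 8.14% (282 of 500 and 203 of 416, then 65 of 509 and 65 of 467). For these 3 genes no interval at E18.5 met one at P1. Tsc22d3, by contrast, was found in 59.7% and 51.7% of fibroblasts at E18.5 and in 34.9% and 43.7% at P1, but in 95.1% and 86.5% and then 40.7% and 37.7% of contractile cells (99 of 103 and 119 of 137, then 34 of 86 and 28 of 67 unthinned). The share with a read of Nr3c1 moved less, from 77.5% and 69.2% to 63.6% and 62.3% in fibroblasts and from 87.4% and 87.2% to 59.3% and 57.4% in contractile cells. In fibroblasts its share was thus lower in both P1 mice although its levels overlapped between the ages. A lower share was therefore not particular to genes with a lower level, and no share was taken over all genes. Each interval is over the cells of 1 mouse and leaves out the spread between mice, so intervals that do not meet are a description. Reads copied from 1 molecule are also not independent, and no test was made on cells.

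**Figure D3:**
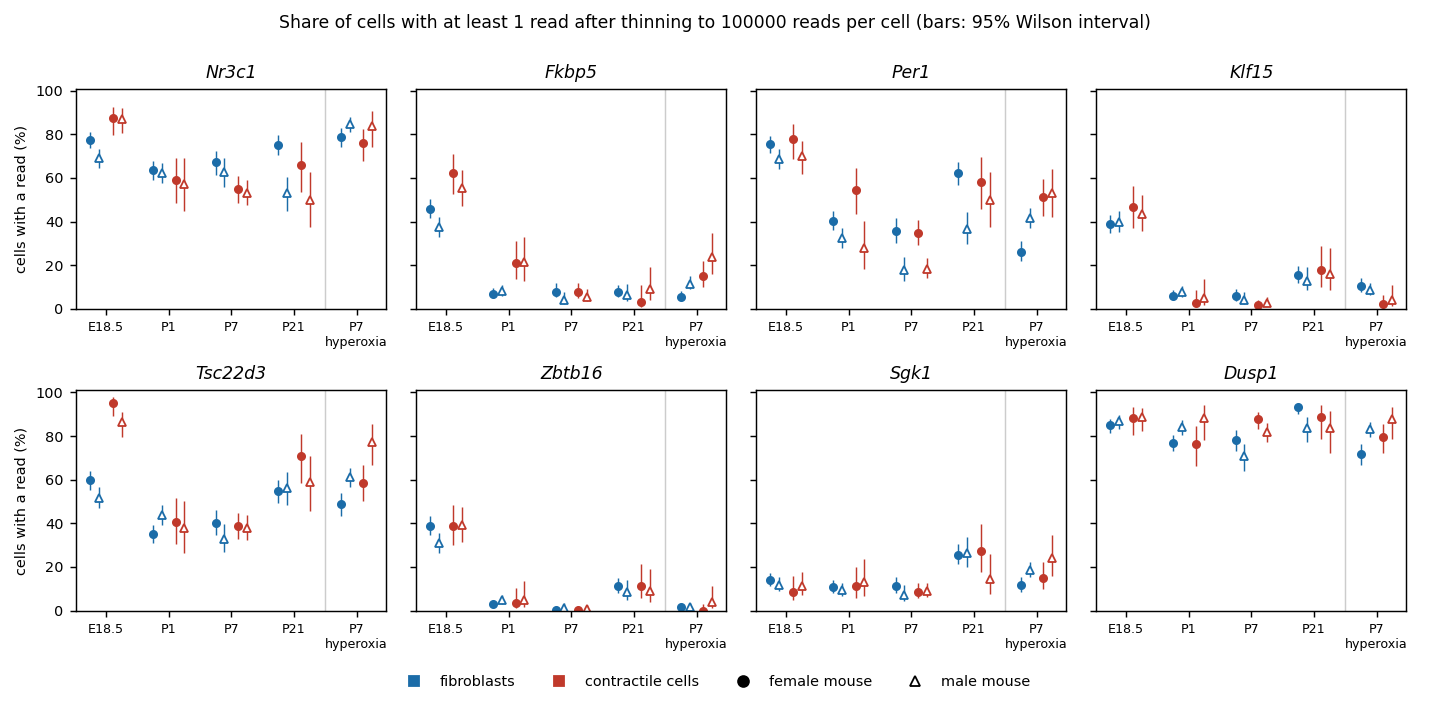
Share of cells with at least 1 read of each gene after thinning to 100000 reads per cell (percent, with 95% Wilson intervals), in fibroblasts and contractile cells of each mouse. Klf15, Zbtb16 and Fkbp5 are in 30.8% to 62.1% of cells of both classes at E18.5 and in 2.47% to 21.3% at P1.

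In the subtypes with at least 10 cells per mouse at both ages, most of the 8 genes had a negative log2 change, with fewer cells at E18.5. Vascular smooth muscle, with 7 and 9 cells at E18.5, was not tested around birth and differed. Klf15 had no read there in either mouse at E18.5 and was at 27.6 and 18.4 CPM at P1. Nr3c1, Sgk1 and Dusp1 were also higher there in both P1 mice, while Fkbp5, Per1, Tsc22d3 and Zbtb16 overlapped between the ages. Early adventitial fibroblasts, the cells around airways and vessels, numbered 26 and 29 at E18.5 and 138 and 67 at P1. None of the 8 genes passed the test there, where 0.0135% of 14831 genes did (1416 at an unadjusted p under 0.05). Both P1 mice were lower for 7 of the 8 genes, against 15.6% of all genes, and higher for Nr3c1. Klf15 was at 120.5 and 184 CPM at E18.5 and 4.51 and 8.27 CPM at P1 (-4.60 ± 0.69 (SE), adjusted p = 0.0871). Tsc22d3 was at 309 and 390.0 CPM and 69.0 and 90.0 CPM (-2.17 ± 0.37 (SE), adjusted p = 0.113), and Per1 at 212 and 234 CPM and 71.3 and 67.4 CPM (-1.73 ± 0.57 (SE), adjusted p = 0.426). Nr3c1 was at 169 and 156 CPM and 278 and 266 CPM (0.70 ± 0.28 (SE), adjusted p = 0.508). With no term for sex, Klf15 alone passed (adjusted p = 0.0417). Beside these, 10 of the 12 immediate early and dissociation genes had a negative log2 change in this subtype (median -0.65, none called) and all 5 adventitial markers a positive one (median 1.49, none called), and their part in the lower levels was not tested.

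Early alveolar fibroblasts had only 14 and 24 cells at E18.5, against 362 and 393 at P1. None of the 8 genes passed, and 0% of 15446 genes did (0 called, 3442 at an unadjusted p under 0.05). The median change over all genes was itself 1.36 on the log2 scale, against -0.90 over the 8 genes, so the small E18.5 libraries limit this comparison. Both P1 mice were lower for 2 of the 8, Nr3c1 (382 and 387 CPM, then 258 and 199 CPM) and Fkbp5 (33.9 and 147 CPM, then 8.11 and 7.52 CPM), against 8.97% of all genes. Of the Fkbp5 reads in the E18.5 male, 99.9% came from 1 cell. Tsc22d3 was at 355 and 2.87 CPM at E18.5, with 94.9% of the female's reads from 1 cell, and at 120.4 and 178 CPM at P1. Each E18.5 library decides the calls here. Without the E18.5 female, 4 of the 8 passed, with Nr3c1, Fkbp5 and Sgk1 lower at P1 and Tsc22d3 higher by a log2 change of 5.50 (adjusted p = 0.000188). Without the E18.5 male, 2 passed, Klf15 lower by -2.49 (adjusted p = 0.00631) and Dusp1 higher by 2.30 (adjusted p = 0.0433). In these fits up to 6994 of all genes were called.

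Pericytes, the mural cells of capillaries, were 14 and 14 at E18.5 and 23 and 20 at P1, and 0 of the 8 genes passed where 0.042% of 11894 genes did (642 at an unadjusted p under 0.05). Fkbp5 was at 26.5 and 21.9 CPM at E18.5 and had 1 read and no read at P1. Klf15 had no read in either mouse at P1 and was at 3.72 and 174 CPM at E18.5, with 89.0% of the male's 1760 reads from 1 cell. Tsc22d3 was at 153 and 137 CPM and then 115 and 322 CPM, and the ages overlapped.

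Levels at E18.5 were ordered by subtype, over the 6 subtypes with at least 10 cells in both mice. Myofibroblast and smooth muscle precursors were highest for Tsc22d3 at 1361 and 1188 CPM, and both mice were above every other subtype. Early adventitial fibroblasts followed at 309 and 390.0 CPM, proliferating fibroblasts at 278 and 179 CPM, fibroblast precursors at 212 and 201 CPM, early alveolar fibroblasts at 355 and 2.87 CPM and pericytes at 153 and 137 CPM, with overlap between most of these neighbours. The same precursors were highest for Nr3c1 at 540.2 and 490.4 CPM, and proliferating fibroblasts were lowest by the mean at 140.3 and 164 CPM. The precursors also had the highest level of Per1 at 449 and 323 CPM, where the fibroblast precursor came next at 320.0 and 261 CPM and the lower of the first stood only just above the higher of the second. Their mean was highest as well for Fkbp5 at 145 and 168 CPM and Klf15 at 163 and 143 CPM, though for these the next subtype overlapped. It was the early alveolar fibroblast for Fkbp5 at 33.9 and 147 CPM and the early adventitial fibroblast for Klf15 at 120.5 and 184 CPM.

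Zbtb16 had another order. Fibroblast precursors at 95.7 and 72.6 CPM and myofibroblast and smooth muscle precursors at 80.7 and 70.3 CPM overlapped, and both stood above early adventitial fibroblasts at 30.0 and 47.4 CPM and proliferating fibroblasts at 29.6 and 28.5 CPM. Early alveolar fibroblasts were at 7.04 and 5.89 CPM and pericytes at 5.22 and 0 CPM. Early adventitial fibroblasts were highest for Sgk1 at 131 and 83.9 CPM, above all other subtypes in both mice. They were also highest by the mean for Dusp1 at 4122 and 5218 CPM, where pericytes at 2484 and 4604 CPM overlapped with them. The proliferating fibroblasts held 59.7 and 42.8 CPM of Klf15, below fibroblast precursors at 105 and 99.7 CPM in both mice.

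From P1 to P7, 0 of the 8 genes passed the test in fibroblasts, contractile cells or pericytes. Nor did any other gene: the share called was 0% in each of the 3 classes, with 1245, 858 and 475 genes at an unadjusted p under 0.05. Zbtb16 was at 0.0909 and 0.313 CPM in fibroblasts at P7 (-4.92 ± 0.71 (SE), adjusted p = 0.161), which is 28 and 65 reads, with 89.3% and 96.9% of them from 1 cell of each mouse. In contractile cells it was at 0.241 and 0.659 CPM (-4.12 ± 1.55 (SE), adjusted p = 0.853). With 1 of the P21 mice left out the fibroblast change of Zbtb16 passed, at a log2 change of -4.95 and an adjusted p of 0.0472 without the P21 female. At P7 fibroblasts held 14.6 and 10.9 CPM of Klf15, 85.9 and 33.4 CPM of Per1, 142 and 109 CPM of Tsc22d3 and 268 and 285 CPM of Nr3c1.

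From P7 to P21, 6 of the 8 genes rose in fibroblasts, where 5.1% of 16831 genes changed, and 5 of 8 rose in contractile cells, where 4.85% of 15176 did. Per1, Klf15, Tsc22d3, Sgk1 and Dusp1 rose in both classes and Zbtb16 in fibroblasts. Of the genes called, 456 rose and 403 fell in fibroblasts, and 304 rose and 432 fell in contractile cells. The subtypes again differ: at P21 the fibroblasts were mainly alveolar (181 and 69 cells) and adventitial (153 and 85), and contractile cells were mainly airway smooth muscle (58 and 55), whereas at P7 they were mainly early alveolar fibroblasts (218 and 147) and myofibroblasts (155 and 184). In fibroblasts the adventitial markers went from 2657 to 4204 CPM at P7 to 9177 to 16112 CPM at P21, with 3 of 5 higher, and the contractile markers from 1297 to 1325 CPM to 138 to 222 CPM, with 2 of 6 lower. In contractile cells the contractile markers went from 12550.4 to 12781 CPM to 4358 to 4693 CPM, with 1 of 6 lower. The part of these shifts in the rise was not tested.

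Sgk1, which had not passed at birth, was at 35.2 and 8.92 CPM at P7 and at 118 and 232 CPM at P21 in fibroblasts, an 11.1-fold rise (log2 change 3.48 ± 0.61 (SE), adjusted p = 0.0133). Contractile cells went from 19.9 and 18.9 CPM to 93.5 and 239 CPM, a 10.9-fold rise (log2 change 3.45 ± 0.55 (SE), adjusted p = 0.0085). Both P21 mice were above both P7 mice in both classes. Zbtb16 in fibroblasts was at 9.89 and 7.39 CPM at P21, in 49 of 343 and 15 of 160 cells, against the few reads at P7 (log2 change 5.87 ± 0.74 (SE), adjusted p = 0.00289). In contractile cells it was at 15.3 and 7.85 CPM (5.54 ± 1.68 (SE), adjusted p = 0.102), also without overlap.

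Tsc22d3 was at 300.0 and 580.4 CPM at P21 in fibroblasts, a 4.12-fold rise (log2 change 2.04 ± 0.37 (SE), adjusted p = 0.0154), and at 563 and 1039 CPM in contractile cells, a 9.15-fold rise (log2 change 3.19 ± 0.41 (SE), adjusted p = 0.00287). Klf15 was at 45.1 and 24.3 CPM in fibroblasts, 3.16-fold higher (log2 change 1.66 ± 0.36 (SE), adjusted p = 0.0297), and at 79.5 and 48.7 CPM in contractile cells, 11.6-fold higher (log2 change 3.54 ± 0.70 (SE), adjusted p = 0.022). Neither gene's P21 mice overlapped with its P7 mice. Nr3c1 did not pass, at 259.5 and 228 CPM in fibroblasts (0.07 ± 0.24 (SE), adjusted p = 0.897) and at 262 and 273 CPM in contractile cells (0.93 ± 0.28 (SE), adjusted p = 0.105). In fibroblasts its CPM were lower in both P21 mice than in both P7 mice, which held for 29.6% of all genes. The log2 change was slightly positive because edgeR also scales the libraries to each other, which the CPM do not.

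Per1 and Dusp1, which are also immediate early genes, rose in both classes. Per1 was at 216 and 112 CPM in fibroblasts, 3.37-fold higher (log2 change 1.75 ± 0.35 (SE), adjusted p = 0.0231), and at 301 and 149 CPM in contractile cells, 6.78-fold higher (log2 change 2.76 ± 0.34 (SE), adjusted p = 0.0023). Dusp1 went from 2206 and 1091 CPM to 4952 and 4282 CPM in fibroblasts (1.72 ± 0.43 (SE), adjusted p = 0.0496) and from 1803 and 1413 CPM to 4692 and 4988 CPM in contractile cells (2.03 ± 0.28 (SE), adjusted p = 0.00382). The fibroblast call of Dusp1 was kept in 5 of 20 alternatives and was lost, for one, with the 4 mice of the comparison alone (0.0502), with DESeq2's size factors (0.0507) and without the P7 male (log2 change 1.11, adjusted p = 0.283), while without the P7 female it was 2.63 (0.0384). Beside them, the summed immediate early and dissociation genes were at 6121 to 11166 CPM at P7 and 12298 to 20851 CPM at P21 in fibroblasts, where 2 of 12 rose, and at 9252 to 10950.0 CPM and 40157 to 54723 CPM in contractile cells, where 10 of 12 rose. The part of that difference in the rise of Per1 and Dusp1 was not tested.

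Fkbp5 passed in neither class. It was at 7.44 and 7.05 CPM at P21 in fibroblasts (0.46 ± 0.60 (SE), adjusted p = 0.689). In contractile cells it was at 0.776 and 48.1 CPM, with 73.7% of the male's reads from 1 cell (1.06 ± 1.18 (SE), adjusted p = 0.651). Without the P21 male, that change was -3.17 with an adjusted p of 0.00954, so 1 library sets its direction. Both P21 mice were above both P7 mice for 6 of the 8 genes in fibroblasts, against 18.3% of all genes, and for 7 of 8 in contractile cells, against 13.3%. The median log2 change of the 8 genes was 1.74 beside 0.02 over all genes in fibroblasts, and 2.98 beside -0.21 in contractile cells. The P7 and P21 females were in separate runs, and within the males, who shared a run, the same 5 genes were higher at P21 in both classes. Apart from Dusp1 in fibroblasts, each call was kept in 14 to 19 of 20 alternatives. Leaving out 1 P7 or P21 mouse left 1 to 5 of the genes past the threshold in fibroblasts and 1 to 7 in contractile cells, with 1 in each class without the P7 male. Fitted on the 4 mice of the comparison alone, 3 genes passed in fibroblasts and 0 in contractile cells.

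**Figure D4:**
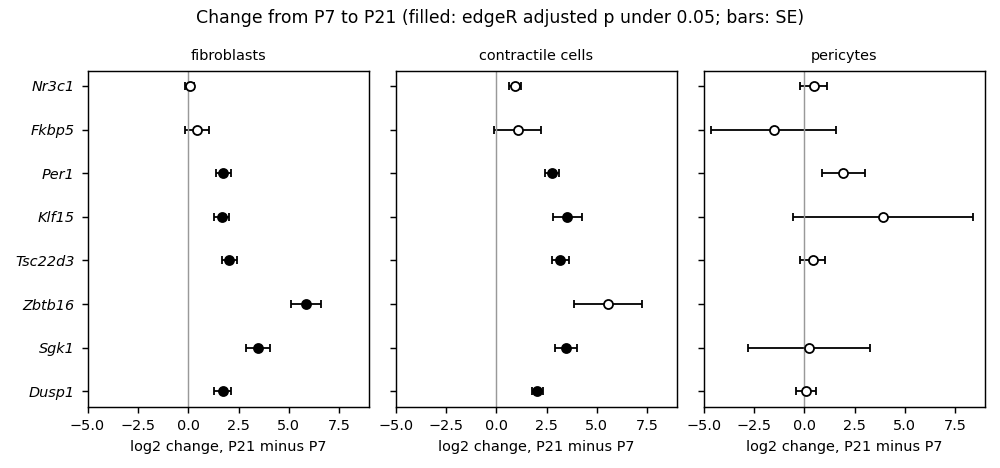
Log2 change from P7 to P21 (P21 minus P7, ± SE) of each gene in fibroblasts, contractile cells and pericytes; filled points have an edgeR adjusted p under 0.05, and genes with 3 reads or fewer over both mice of a group are left out. Of the 8 genes, 6 are filled in fibroblasts, 5 in contractile cells and 0 in pericytes.

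In pericytes 0 of the 8 genes passed from P7 to P21, where 0.0504% of 11894 genes did (554 at an unadjusted p under 0.05). Sgk1 was at 22.0 and 8.31 CPM in pericytes at P21, below every other subtype with at least 10 cells in both mice. Dusp1 was at 1858 and 1872 CPM at P7 and 2559 and 1285 CPM at P21 in pericytes. At P21 the highest mean of Tsc22d3, Klf15, Zbtb16 and Per1 was in airway smooth muscle, with alveolar fibroblasts next and overlapping for all 4. Tsc22d3 was at 584 and 1077 CPM in airway smooth muscle, 418 and 1023 CPM in alveolar fibroblasts and 149 and 313 CPM in adventitial fibroblasts. Klf15 was at 81.1 and 52.3 CPM, 54.2 and 31.2 CPM and 30.1 and 20.6 CPM in the same subtypes.

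Hyperoxia at P7 gave no gene past the threshold in the 5 subtypes tested, among the 8 or among all genes. The share called was 0% in early alveolar fibroblasts, 0% in early adventitial fibroblasts, 0% in myofibroblasts, 0% in early airway smooth muscle and 0% in vascular smooth muscle. At an unadjusted p under 0.05 there were 446, 1233, 847, 528 and 319 genes. DESeq2, by contrast, called 2 of the 8 in early adventitial fibroblasts (Nr3c1 and Zbtb16), 1 in early airway smooth muscle (Dusp1) and 1 in vascular smooth muscle (Klf15), and the values of these are given in full. Over all genes, alternatives other than leaving out 1 mouse called at most 488, 196 and 215 genes in these subtypes. The main fit tested 14831, 12887 and 12417 genes there.

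Nr3c1 in early adventitial fibroblasts was at 283 and 333 CPM under normal treatment and at 164 and 149.8 CPM in hyperoxia, without overlap (-1.18 ± 0.28 (SE), adjusted p = 0.474). In early alveolar fibroblasts the receptor was at 265 and 275 CPM and 231 and 231 CPM (-0.36 ± 0.37 (SE), adjusted p = 1), and in myofibroblasts at 212 and 206 CPM and 105 and 165 CPM (-0.65 ± 0.43 (SE), adjusted p = 0.875). Both hyperoxia mice were lower in these 3 subtypes, but not in early airway smooth muscle (168 and 165 CPM, then 196 and 146 CPM) or vascular smooth muscle (173 and 94.9 CPM, then 169 and 194 CPM).

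Groups without overlap were read against all genes. In early alveolar fibroblasts both hyperoxia mice were lower for 3 of the 8 genes, against 16.3% of all genes, and in early adventitial fibroblasts for 1, against 14.6%. The counts were 2 in myofibroblasts, against 22.6%, 1 in early airway smooth muscle, against 19.2%, and 0 in vascular smooth muscle, against 13.3%. Both hyperoxia mice were higher for 1 gene in early adventitial fibroblasts, against 31.4%, 1 in myofibroblasts, against 24.1%, and 2 in vascular smooth muscle, against 22.8%. The other pair of subtypes had 0, against 27.4% and 17.5%.

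Dusp1 was among those lower in 3 of the 5 subtypes. Male hyperoxic fibroblasts, a label found in the hyperoxia male alone (55 cells), were not tested and held 2886 CPM of Dusp1. In early airway smooth muscle it was at 2538 and 2305 CPM under normal treatment and 1357 and 755 CPM in hyperoxia (-1.23 ± 0.28 (SE), adjusted p = 0.774). In myofibroblasts it was at 1517 and 1312 CPM and 847 and 705 CPM (-0.90 ± 0.42 (SE), adjusted p = 0.797), and in early alveolar fibroblasts at 2269.8 and 836 CPM and 644 and 820.4 CPM (-1.34 ± 0.82 (SE), adjusted p = 1). Per1 in early alveolar fibroblasts was at 83.6 and 39.0 CPM and 28.0 and 33.9 CPM, also lower in both (-0.97 ± 0.65 (SE), adjusted p = 1). Those higher in both were Tsc22d3 in vascular smooth muscle, at 42.9 and 16.3 CPM and 102 and 46.6 CPM (1.11 ± 0.83 (SE), adjusted p = 1), Sgk1 in myofibroblasts, at 11.8 and 8.07 CPM and 26.4 and 15.1 CPM (1.01 ± 0.84 (SE), adjusted p = 0.916), and Klf15 and Zbtb16 in 1 subtype each. Across these subtypes the same 4 mice were measured, so they are not independent repeats.

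Klf15 in vascular smooth muscle had no read in the normal mice at P7 (27 and 31 cells) and 372 and 661 reads in hyperoxia. These came from 1 cell of 22 in the female and 2 cells of 22 in the male. Zbtb16 in early adventitial fibroblasts had 1 read and no read under normal treatment and 130 and 420 reads in hyperoxia, in 4 of 109 and 6 of 116 cells. Both differences rest on few cells, and no fold is given for that reason. Apart from Nr3c1 and Zbtb16, all of the 8 genes overlapped between normal treatment and hyperoxia in early adventitial fibroblasts, and Tsc22d3 in early alveolar fibroblasts was at 162 and 123 CPM and 174 and 160.2 CPM (0.11 ± 1.48 (SE), adjusted p = 1). The fit of early alveolar fibroblasts also held the E18.5 libraries of 14 and 24 cells, with Tsc22d3 at 355 and 2.87 CPM. Their spread is pooled into every SE and p-value of this subtype under hyperoxia.

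Whether the hyperoxia difference itself differed between myofibroblasts and early alveolar fibroblasts was tested in 1 model, and 0% of 15918 genes and 0 of the 8 passed (507 genes at an unadjusted p under 0.05). In contractile cells the thinned share with a read went the other way from the level for Nr3c1. It was 54.8% and 53.3% under normal treatment and 75.9% and 84.0% in hyperoxia, whereas the level was 185 and 195 CPM and 148 and 154 CPM, so no order is read from these shares.

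**Figure D5:**
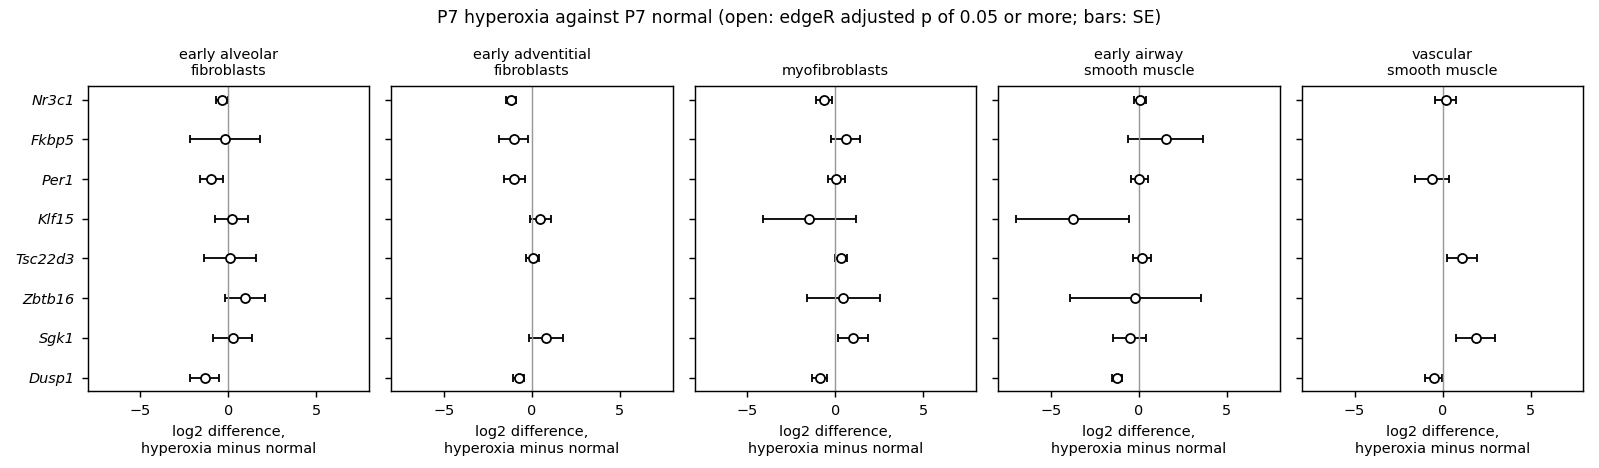
Log2 difference at P7 (hyperoxia minus normal, ± SE) of each gene in 5 subtypes; open points have an edgeR adjusted p of 0.05 or more, and genes with 3 reads or fewer over both mice of a group are left out. All points are open, and those of Dusp1 lie below 0 in the 5 subtypes.

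Other genes of the pathway around birth were read from lists, which were also chosen with earlier results of these data known. Of 26 other genes known to be induced by glucocorticoid, all were tested in fibroblasts, where 2 rose and 2 fell from E18.5 to P1 (median log2 change -0.56, beside -0.0042 over all genes). In contractile cells 25 were tested, of which 1 rose and 2 fell, and 22 had a negative log2 change (median -1.85, beside -0.08). Klf9, a Krüppel-like factor, fell in contractile cells from 174 ± 19.2 to 35.7 ± 1.22 CPM (mean ± SD, n = 2; log2 change -2.30, adjusted p = 0.026 by edgeR). Rgs2, an inhibitor of G protein signalling, fell there from 3127 ± 93.6 to 868 ± 16.7 CPM (log2 change -1.85, adjusted p = 0.0271). In fibroblasts Glul, glutamine synthetase, fell from 296 ± 46.7 to 82.9 ± 8.76 CPM (adjusted p = 0.0324), and Mertk, a receptor for the clearance of dead cells, from 90.2 ± 1.82 to 23.9 ± 0.630 CPM (adjusted p = 0.033).

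Not all induced genes moved downwards. Angptl4, an inhibitor of lipoprotein lipase that fasting and hypoxia also induce, rose in fibroblasts from 75.5 ± 7.55 to 257 ± 49.3 CPM (log2 change 1.84, adjusted p = 0.0122). It rose in contractile cells from 13.2 ± 6.48 to 213 ± 67.5 CPM (log2 change 4.02, adjusted p = 0.00794). Anxa1, annexin A1, rose in fibroblasts from 5.27 ± 1.95 to 155 ± 46.2 CPM (log2 change 4.96, adjusted p = 0.00219).

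Of 12 inflammatory genes that glucocorticoid is known to repress, 11 were tested in fibroblasts and 3 rose (median log2 change 1.88), and of 12 tested in contractile cells 1 rose (median 2.27). Il6 rose in fibroblasts from 5.73 ± 1.70 to 139 ± 28.4 CPM (adjusted p = 0.00224 by edgeR) and Cxcl1 from 91.4 ± 16.5 to 348 ± 48.0 CPM (adjusted p = 0.0207). Mmp3 also rose in fibroblasts and Il6 in contractile cells, both at levels under 10 CPM. None of these genes fell. Of all genes called from E18.5 to P1, 148 rose and 20 fell in fibroblasts, and 61 rose and 55 fell in contractile cells.

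Few genes of the receptor's own machinery passed. Of 19 genes of the receptor, its steroid-converting enzymes and chaperones, 0 passed in fibroblasts (median -0.11), and of 18 tested in contractile cells 1 fell, the corepressor Nrip1, from 278 ± 36.8 to 63.1 ± 6.30 CPM (adjusted p = 0.0463). Among 15 clock genes, 1 rose in each class, Npas2 in fibroblasts and Nr1d1 in contractile cells, both at under 10 CPM. Among the 12 immediate early genes 1 rose in fibroblasts (Atf3, from 40.4 ± 13.4 to 188 ± 21.2 CPM, adjusted p = 0.0417) and 0 passed in contractile cells. No gene of these 5 lists passed in pericytes, early adventitial or early alveolar fibroblasts, nor in any of the 5 subtypes under hyperoxia.

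The lists were also read from P7 to P21. Of the other induced genes, 10 rose and 1 fell of 26 in fibroblasts (median log2 change 1.70, beside 0.02 over all genes). In contractile cells 11 rose and 1 fell of 25 (median 3.08, beside -0.21). Over all genes, 456 of 16831 tested rose and 403 fell in fibroblasts, and 304 of 15176 rose and 432 fell in contractile cells. The genes known to be repressed by glucocorticoid rose as well, 5 of 11 in fibroblasts (median 2.80) and 5 of 12 in contractile cells (median 5.69), and none fell. The medians of both lists were thus above 0 here, whereas around birth they had opposite signs. The cause of these signs was not tested.

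Across 64 libraries of 1 subtype and 1 mouse with at least 10 cells, the genes whose log2(CPM + 1) was most like that of each of the 8 were taken from 10861 genes by Pearson's r. The libraries share 10 mice, so r is a description. Dusp1 was most like Ppp1r15a (0.816), Egr1 (0.810) and Brd2 (0.790), and Per1 like Cebpd (0.707), Ets2 (0.686) and Ier2 (0.668). Zbtb16 was most like Per1 (0.660), Klf15 (0.640) and Zfp36l1 (0.625), the first and the second of them among the 8 genes. Klf15 was most like Slc10a6 (0.659), Zbtb16 (0.640) and Kcna2 (0.609). Tsc22d3 was most like Aplp2 (0.646), Arrdc3 (0.626) and Rnf13 (0.624), and Nr3c1 like Lama4 (0.629), Ap3d1 (0.616) and Sparcl1 (0.608). Fkbp5 was most like Bnip3 (0.629), Timm8b (0.545) and Ldha (0.535), and Sgk1 like Dnajb1 (0.558), Eno2 (0.556) and B2m (0.555). Among the 8 genes themselves, r was highest between Per1 and Zbtb16 and lowest between Fkbp5 and Dusp1 (-0.102).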

How the data were processed

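Single-cell RNA-seq libraries of mouse distal lung mesenchyme were plate-based, made with Tn5 transposase and no extraction step, per the labels' protocols. The deposited values are read counts per gene and cell, whole numbers that the authors did not normalize. The submitters' processing notes name STAR 2.5.2b, HTSeq 0.10 and the build GRCh38, which is a human build name, while the symbols are those of mouse genes. The annotation, strand setting and removal of doublets are not given in the sources used here, and no doublet caller was run. No molecular identifiers are named, so counts are of reads, not molecules.

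For each mouse with at least 10 cells of a class, the reads of those cells were added up. The sums entered 1 fit per class in R 4.3.3 (edgeR 4.0.16, quasi-likelihood, two-sided) after TMM scaling and filterByExpr by group, with sex and group as terms and all mice that had the class. The difference between classes used summed counts of both classes with the mouse as a block. CPM are of all reads summed. The SE given with a log2 change was derived from the test, as the absolute log2 change divided by the square root of its F statistic. The labels name 1 mouse per sex and group. With sex as a term, p-values of the fits per class rest on how far the female-male difference varied between groups. That spread was pooled over all groups in the fit and is not the spread between animals of 1 group. Cells were thinned with seed 7. The test scripts were checked on simulated counts. Alternatives used DESeq2 1.42.0 and limma 3.58.1 among others.

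The 8 genes and the lists of other genes were chosen with earlier results of these data known. From the lists, genes past the threshold around birth or under hyperoxia were named, at most 4 per list and comparison, where a group mean reached 10 CPM. Those called at lower levels are named without values, as chosen after their values were seen. The 3 genes most like each of the 8 had a mean of at least 5 CPM. Promoters of Zbtb16 and Nr3c1 were not used here.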

Additional observations from a re-analysis of the deposited data

Results flagged for a closer look

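The change from E18.5 to P1 differed between fibroblasts and contractile cells for 2 of the 8 genes in a test of the difference itself, a model of both classes with the mouse as a block. For Nr3c1 the log2 change was lower in contractile cells by -1.33 ± 0.21 (SE), adjusted p = 0.0498 by edgeR, and for Tsc22d3 by -2.86 ± 0.36, adjusted p = 0.019. For both genes, the ratio of the P1 to the E18.5 level was lower in contractile cells than in fibroblasts in each sex. In myofibroblast and smooth muscle precursors alone, with 7 cells in each P1 mouse, the ages overlapped for Nr3c1 but not for Tsc22d3. Nr3c1 was there at 540 and 490 CPM and then 580 and 270 CPM, and Tsc22d3 at 1361 and 1188 CPM and then 126 and 68.0 CPM. In the alternatives tried, the difference of Nr3c1 kept its call in 4 of 14 and was lost at an adjusted p of 0.0535 to 0.264 in the rest. The call of Tsc22d3 was kept in 11 of 14 and lost without the E18.5 female (0.152), the E18.5 male (0.116) or the P1 male (0.0681).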

How the results depend on the processing

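The 8 genes were recomputed under alternatives that changed 1 choice at a time. Fits without the hyperoxia and P21 mice, and with P21 adventitial fibroblasts joined to the early ones, were chosen after seeing the data. The calls around birth are limited by 2 mice a group. With each mouse left out in turn, the number of the 8 genes called from E18.5 to P1 was 0 to 4 in fibroblasts, 0 to 5 in contractile cells and 0 to 4 in early alveolar fibroblasts, and the number that differed between classes was 0 to 2. From P1 to P7 in fibroblasts it was 0 to 1. From P7 to P21 it was 1 to 5 in fibroblasts and 1 to 7 in contractile cells.

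DESeq2 called more from E18.5 to P1: 4 in fibroblasts, 6 in contractile cells, 2 in pericytes and 4 in early adventitial fibroblasts. From P1 to P7 it called 1 in each of fibroblasts, contractile cells and pericytes, and under hyperoxia 2 in early adventitial fibroblasts, 1 in early airway smooth muscle and 1 in vascular smooth muscle. Over all genes around birth it called 932 in fibroblasts beside 168, and 1048 in contractile cells beside 116. The cause of these larger numbers was not tested. For the other comparisons, the most genes called in alternatives other than leaving out 1 mouse are given. Around birth these were 667 in pericytes and 863 in early adventitial fibroblasts. From P1 to P7 they were 530 in fibroblasts, 349 in contractile cells and 478 in pericytes. In early adventitial fibroblasts 1 gene, Klf15, was called with no filter on low counts, and 1 with P21 adventitial fibroblasts joined. With cells of the mesenchymal sort only, 1 gene was called in fibroblasts around birth and 1 differed between classes. With only the 4 mice of the contrast, 3 were called from P7 to P21 in fibroblasts and 0 in contractile cells.

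Replicates share a sex between groups and only in part a run. Female-minus-male deviations correlated by -0.101 to 0.152 between groups in fibroblasts and by -0.045 to 0.078 in contractile cells, so the numbers do not pair the mice. With no replicate block, that is, no term for sex, 1 gene was called around birth in early adventitial fibroblasts (Klf15) and 2 in contractile cells (Klf15 and Tsc22d3, with Per1 lost at an adjusted p of 0.186). In fibroblasts 3 were called, with Per1 lost (0.0695) and Fkbp5 gained (0.0323), and 1 differed between classes (Tsc22d3). The change of Fkbp5 in contractile cells from P7 to P21 reversed to -3.17 without the P21 male, whose reads were mostly of 1 cell, and was 2.33 without the P21 female. Of 2479 values of single genes, 2201 kept their direction and their side of the threshold, 90 lost a call, 48 gained one and 139 changed sign with no call. A minimum of 20 cells could not be fitted where it removed an age.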
